A study of Mus musculus with 4 samples.

Results

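Twist1, Snai1, Tbx20 and Vim are 4 genes of mesoderm and of the epithelial-to-mesenchymal transition (EMT). Every region that the deposited table gives under those 4 symbols was taken, which made 6 of 6697 distinct regions and 4 of 3882 genes with a region. Each of the 6 regions carried 1 gene symbol only.

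In an EMT, cells let go of their epithelial neighbours and become motile. The embryo uses it when mesoderm forms at the primitive streak. Snai1 encodes Snail, a zinc finger repressor of E-cadherin, and Twist1 encodes a basic helix-loop-helix factor of mesoderm and neural crest. Tbx20 encodes a T-box factor of the developing heart. Vim encodes vimentin, the intermediate filament protein of mesenchymal cells and a customary marker of the transition. N6-methyladenosine (m6A) is a methyl mark on adenosines inside mRNA, often near stop codons and in 3'UTRs, that bears on mRNA decay and translation. Gsk-3 kinases are known to phosphorylate Snail protein and so mark it for degradation.

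The 4 samples were m6A-selected mRNA and total mRNA (input) from wild-type embryonic stem cells and from Gsk-3 double-knockout (DKO) cells, both of strain E14K. All were kept without LIF, the cytokine that sustains self-renewal, for 14 days before RNA was taken, so wild type and DKO shared that condition. Each group had 1 library. The labels do not say how the knockout was made or whether the cells came from 1 clone, and the m6A antibody had the same lot in both genotypes. The table has a count for wild type and a count for DKO without naming the library type, and these were taken as the m6A libraries. Input counts were not used here, so less methylation and less transcript cannot be told apart in any value below. In a culture that can hold several cell types, fewer cells of a type and less RNA per cell cannot be told apart either.

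Over all 6697 regions, the median count was 43 in wild type (range 15 to 13799) and 0 in DKO (range 0 to 1100). The counts summed to 573971 in wild type and 27072 in DKO, which are sums over listed regions and not sequencing depths. The DKO count reached the wild-type count in 0 regions, so a lower DKO count is shared by every listed region and its direction sets no gene apart. Of 10 stem cell markers 4 were listed (266 reads in all in wild type against 14 in DKO, in their deepest regions). They were Pou5f1 (55 against 6), Esrrb (146 against 7), Utf1 (46 against 1) and Lin28a (19 against 0). Nanog and Sox2 were not listed in the table used here. Of 8 fibroblast or mesenchyme markers 2 were listed (Col1a1 with 108 reads against 0 and Pdgfrb with 15 against 0), of 8 endoderm markers 6 (765 reads in all against 95) and of 6 cardiac muscle markers 1 (Nkx2-5, 21 against 0). Of 4 neural markers 2 were listed (1147 reads against 12) and of 4 trophoblast markers 3 (89 against 3). Their part in the values of the 4 genes was not tested.

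The 6 regions lay inside their genes in RefSeq's GRCm38.p6 annotation, the build that the deposited coordinates match. Twist1, on the plus strand of chromosome 12, had a region at chr12:33958385-33958607 that the authors annotated as coding exon. Its other region, at chr12:33959142-33959509, was annotated as intron and 3'UTR. Snai1, on the plus strand of chromosome 2, had a region at chr2:167542257-167542415 in the 3'UTR. Tbx20, on the minus strand of chromosome 9, had a region at chr9:24773923-24774106 in the 5'UTR. Vim, on the plus strand of chromosome 2, had a region at chr2:13574311-13574517 over coding exon and 5'UTR, and another at chr2:13574644-13574873 in coding exon.

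Both Vim regions and the Tbx20 region lay near the start of the gene, and the Snai1 region and the second Twist1 region lay towards the end. The first Vim region began on the base where RefSeq starts the gene, and the second spanned bases 333 to 562 after it. The Tbx20 region spanned bases 197 to 380 after the start of a gene 53492 bases long. The Snai1 region spanned bases 4062 to 4220 of 4620 and ended 399 bases before the end of the gene. In Twist1, a short gene of 2161 bases, the coding region spanned bases 714 to 936 and the later region bases 1471 to 1838.

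**Figure D1:**
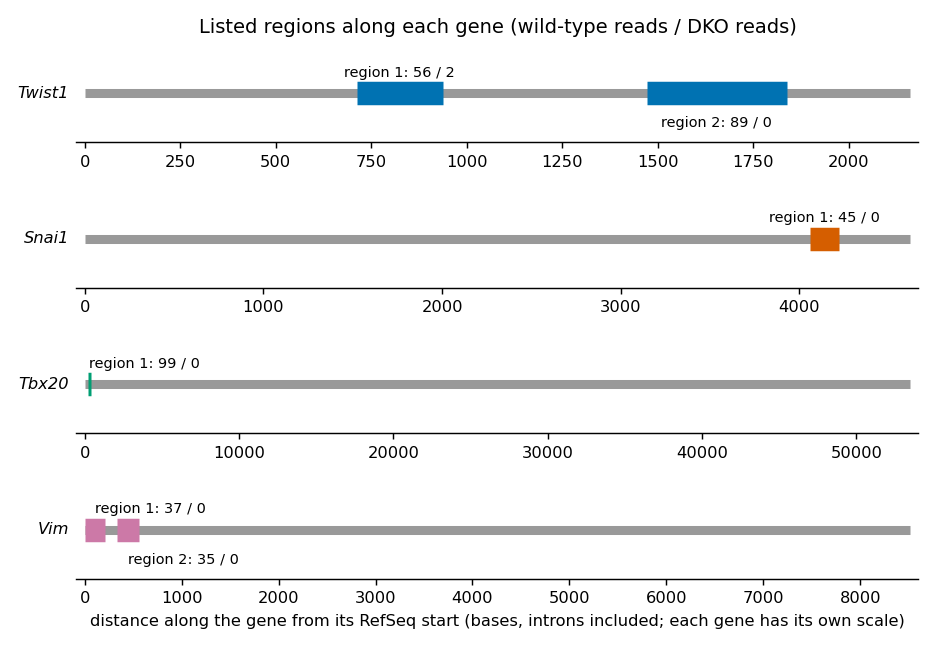
Map of the listed regions (coloured blocks) along each gene (grey bar), with the distance from the RefSeq start in bases on each horizontal axis and wild-type and DKO read counts beside each block. Vim and Tbx20 have their regions near the start, Snai1 has its region at bases 4062 to 4220 of 4620, and Twist1 has regions in the middle and towards the end.

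Only the first Vim region reached the window of RefSeq sequence around gene starts that was at hand, with 50 bases in it. Those bases hold the letters GGAC, the core of the motif in which m6A is most often found, 1 time on the transcribed strand. The stretch is shown because it is the part of the members' regions that could be read. It lies on the plus strand of GRCm38.p6 at chr2:13574317-13574346, within the region with 37 wild-type reads and 0 DKO reads, and the capitals mark the letters GGAC, which begin 19 bases after the gene's first base.
Vim start: cactcttgctccgGGACcccagagacccca
GGAC was present on the transcribed strand in 18.9% of the 32851 RefSeq start windows when only their last 50 bases, those from the gene start on, were searched, and on the other strand in 17.4%. The longer motif GGACT, which contains GGAC, was present in 5.76% and 4.87%, and in none of those 50 bases of the 4 genes on either strand. In the same 50 bases, GGAC occurred 0 times on the transcribed strand of Twist1, Snai1 and Tbx20, whose regions lie outside them. These matches are letters and not mapped m6A sites.

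Twist1 had the only DKO reads of the 4 genes. Its coding region had 56 reads in wild type (exact Poisson 95% interval 42.3 to 72.7) and 2 in DKO (0.242 to 7.22). Wild type was the higher library by 23.1-fold, with an exact Clopper-Pearson 95% interval of 6.10 to 195 for the ratio. Folds throughout are wild type over DKO times the authors' constant of 0.825, and the authors' deposited table gives the same 23.1 as its enrichment factor. The later region of Twist1, over intron and 3'UTR, had 89 reads in wild type (71.5 to 109.5) and 0 in DKO (0 to 3.69). A fold against 0 is a lower bound, set here at a floor of 3 DKO reads per region, and by it DKO was at least 24.5-fold lower. The lower 95% limit of the ratio was 19.5-fold. Every fold worded as at least rests on that floor and is not a 95% limit. DKO reads made up 3.45% of the reads of both libraries in the coding region (0.420 to 11.9) and 0% in the later one (0 to 4.06). The intervals of the 2 regions overlapped, which does not settle whether they differ, and a difference between them was not tested. Over both regions, Twist1 had 145 reads against 2, or 59.8-fold (16.3 to 498).

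Tbx20 had the highest count of the 6 regions. Its 5'UTR region had 99 reads in wild type (80.5 to 120.5) and 0 in DKO (0 to 3.69), at least 27.2-fold lower. The lower 95% limit of the ratio was 21.7-fold. The wild-type count was above that of 80.8% of all regions. Of the 3382 regions with no DKO reads, 248 (7.33%) had as many wild-type reads, and of the 66 such regions annotated to 5'UTR alone, 3 did, Tbx20 included.

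Snai1 had 45 reads in wild type (32.8 to 60.2) and 0 in DKO (0 to 3.69) in its 3'UTR, at least 12.4-fold lower. Its count was near the middle of the table, above that of 51.1% of regions. Vim had 37 reads in wild type (26.1 to 51.0) against 0 at its start, at least 10.2-fold lower. Its second region had 35 (24.4 to 48.7) against 0, at least 9.62-fold lower. The 2 Vim regions lay side by side and had like counts, and together they held 72 reads against 0. The ratio over both had a lower 95% limit of 15.7-fold. The lower 95% limits of the ratio were 9.65-fold for Snai1 and 7.87-fold and 7.42-fold for the first and second Vim regions.

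**Figure D2:**
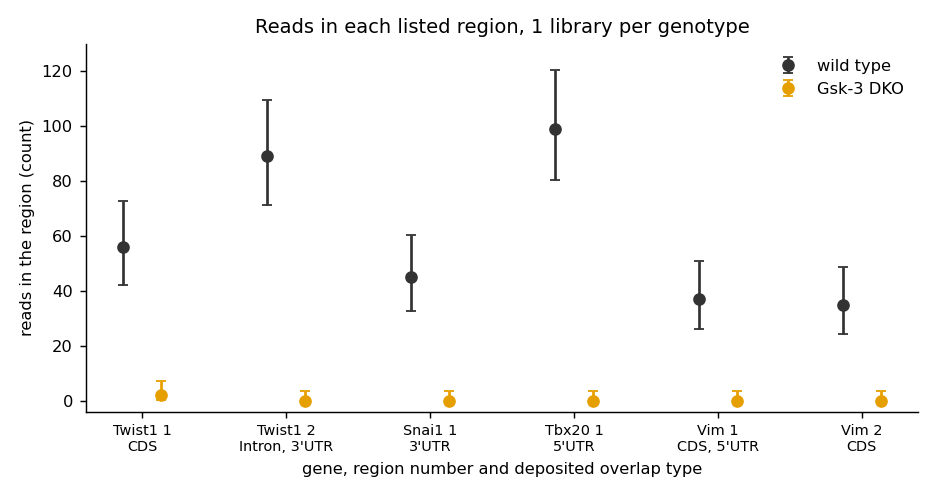
Read counts in the 6 regions, with wild type in black and Gsk-3 DKO in orange, 1 library each; bars are exact Poisson 95% intervals and cover counting error only. Wild-type counts run from 35 to 99, and DKO counts are 0 in 5 regions and 2 in the Twist1 coding region.

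Per base of the region, Tbx20 was the densest in wild type, at 0.538 reads per base (Poisson 95% interval 0.437 to 0.655). Snai1 followed at 0.283 (0.206 to 0.379), and its interval did not reach that of Tbx20. The Twist1 regions had 0.251 (0.190 to 0.326) and 0.242 (0.194 to 0.298), within the interval of Snai1. Vim had the lowest densities, 0.179 (0.126 to 0.246) and 0.152 (0.106 to 0.212), which overlapped those of Twist1. The median over all regions was 0.219 reads per base. No density is given for DKO, where 5 of 6 counts were 0. Lengths ran from 159 bases (Snai1) to 368 bases (the later Twist1 region), against a median of 191 over all regions, and 95.6% of regions were shorter than that Twist1 region.

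A DKO count of 0 was common in the table. It was found in 5 of the 6 regions of the 4 genes and in 50.5% of all regions. At least 10-fold lower counts, with zeros at their bound, were found in 5 of the 6 and in 52.5% of all regions. The second Vim region was not counted because its bound was 9.62, and its fold above that is unknown. Among regions with no DKO reads, this cut depends on the wild-type count alone. With 1 region per gene, the deepest by the mean of both counts, 4 of the 4 genes had no DKO reads, against 46.2% of all genes. With 6 regions from 4 genes that were chosen with results of these data known, these counts describe the 4 genes and show nothing particular to them.

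**Figure D3:**
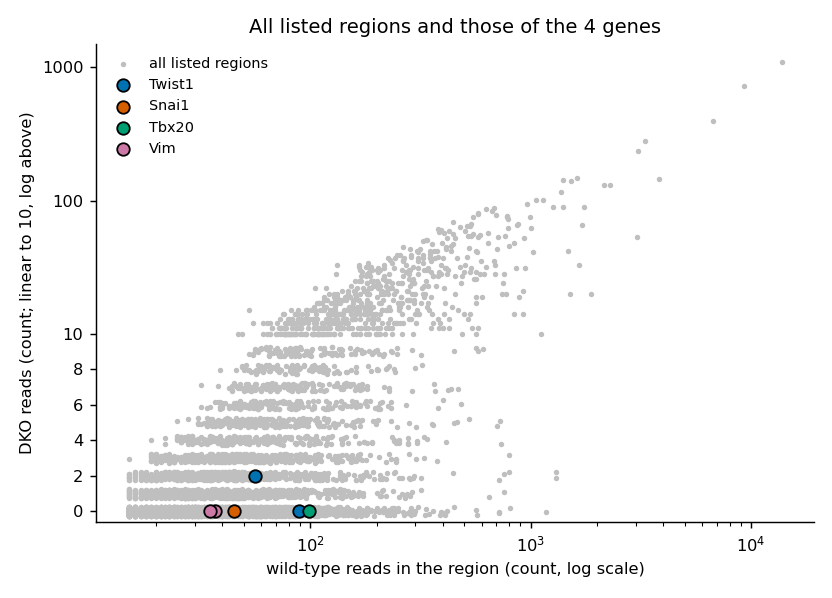
DKO reads (vertical, linear to 10 and log above) against wild-type reads (horizontal, log scale) for all 6697 regions in grey, jittered vertically below 10 DKO reads, with the 6 regions of the 4 genes in colour. Of the coloured points, 5 sit on the line of 0 DKO reads and the Twist1 coding region sits at 2.

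The share of regions without DKO reads differed with the wild-type count. It was 84.3% at 15 to 19 wild-type reads, 47.3% at 40 to 59 and 29.4% at 80 to 119. The lowest fold of any listed region with DKO reads was 2.91, and the lowest wild-type count was 15. At low wild-type counts the listed regions therefore held few DKO reads, and regions with more were absent. These shares describe the listed regions and are not a general rate of zeros at each depth. Among the 1412 regions with counts within 1.5 times that of Tbx20 (66 to 148 reads), 30.9% had no DKO reads (exact binomial 95% interval 28.5 to 33.4) and the median DKO count was 3. For the later Twist1 region (60 to 133 reads) the share was 33.6% (31.2 to 36.0), with a median of 2. A DKO count of 0 was less common than having any DKO reads at the depth of these 2 regions.

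At the depth of Snai1 it was found about as often as not. Among 2515 regions with 30 to 67 wild-type reads, 50.9% had no DKO reads (49.0 to 52.9). For the first and second Vim regions the shares over regions of any annotation were 56.2% (54.3 to 58.1) and 57.6% (55.6 to 59.5). For the Twist1 coding region, with 56 reads against 2, 44.1% of the 2230 regions of like count had no DKO reads, 679 had 1 to 3 and 568 had more than 3.

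**Figure D4:**
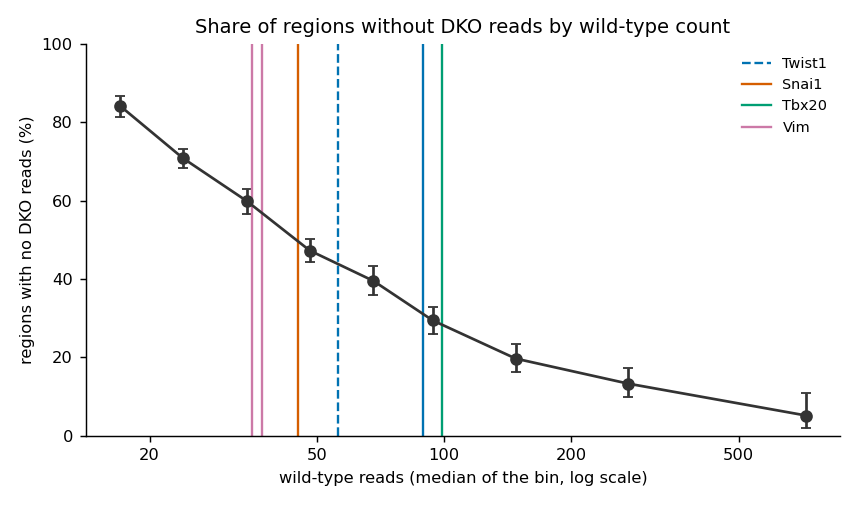
Share of regions with no DKO reads (percent, points with exact binomial 95% intervals) against the median wild-type count of each bin (log scale), with vertical lines at the wild-type counts of the 6 regions. Solid lines are regions with no DKO reads and the dashed line is the Twist1 coding region; the share is 59.9% in the bin that holds Vim and 29.4% in the bin that holds Tbx20 and the later Twist1 region.

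Among regions of the same annotation and like count the shares were lower, also for Snai1 and Vim; for the later Twist1 region only 4 such regions were listed. Of 162 regions in 5'UTR alone, 66 (40.7%) had no DKO reads, and of the 42 with counts like that of Tbx20, 9 did (21.4%, 10.3 to 36.8). Of 615 regions in 3'UTR alone, 247 (40.2%) had none, and 41.7% (35.9 to 47.8) of the 278 with counts like that of Snai1. Of 1417 regions in coding exon alone, 29.4% had none. Among those with counts like the second Vim region the share was 41.6% (37.4 to 45.9), and among those with counts like the Twist1 coding region it was 29.6%. Regions over coding exon and 5'UTR, the class of the first Vim region, had none in 40 of 114, and in 22 of the 53 with counts like that region (41.5%, 28.1 to 55.9).

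Twist1 and Vim were among the 665 genes with 2 regions. Both regions lacked DKO reads in 130 of these genes (19.5%), as in Vim, and 1 of the 2 did in 265 (39.8%), as in Twist1. Snai1 and Tbx20 were among the 2707 genes with 1 region, of which 54.2% had no DKO reads.

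Of 17 EMT transcription factors, 8 were listed. Of these, 5 (62.5%) had no DKO reads in their deepest region, against 46.2% of all genes. The 5 include Twist1 and Snai1, which were chosen with results of these data known, so the share is not independent of that choice. Of the genes other than Twist1 and Snai1, Zeb2, Foxc1 and Klf8 had none, and Tcf4, Ets1 and Hmga2 had DKO reads. Beside Twist1 and Snai1, Zeb2, a zinc finger repressor of E-cadherin, had 111 coding-exon reads against 0, at least 30.5-fold lower in DKO. The Krüppel-like factor gene Klf8 had 29 against 0 in an intron, at least 7.97-fold. At the other end, Tcf4, a basic helix-loop-helix factor that pairs with Twist proteins, had 56 against 5 in an intron (9.24-fold, 3.73 to 29.6), and the chromatin protein gene Hmga2 had 20 against 3 (5.50-fold, 1.63 to 28.9). The median fold of the 8, with zeros at their bound, was 10.8, against 11.1 over all genes. Their median log2 of DKO over wild type, with a pseudocount of 0.5, was -5.86 against -5.04, so the 2 measures placed the list on opposite sides of all genes. Snai2, Snai3, Twist2 and Zeb1 were not listed in the table used here.

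Among 20 mesenchymal effector genes, 10 were listed, Vim included, and 7 had no DKO reads in the deepest region (70.0%, against 46.2% of all genes). Vim is also among these 7, and it was chosen with results of these data known. The median wild-type count of the 10 was 100.0, against 49 over all genes. Tnc, the matrix protein tenascin C, had 570 reads against 0, the smooth muscle actin gene Acta2 118, the collagen gene Col1a1 108 and the membrane protease gene Mmp14 92, each against 0. With that pseudocount the smallest log2 differences were those of Fn1, encoding fibronectin (65 against 4, 13.4-fold, 4.99 to 50.7, with 237 against 8 over its 6 regions), and of the actin-binding caldesmon gene Cald1 (169 against 13, 10.7-fold, 6.10 to 20.6, with 306 against 13 over its 3 regions). That order rests on the pseudocount given to zeros, since Pdgfrb (15 against 0) and Tagln (27 against 0) had bounds of only 4.12-fold and 7.42-fold. Vim, at 37 reads, was the lowest but 2 of the 10 in wild-type count, above Tagln and Pdgfrb. The median fold, with zeros at their bound, was 13.4, against 11.1 over all genes.

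Epithelial genes, which cells switch off in an EMT, were counted for comparison. Of 23, 9 were listed and 3 had no DKO reads in the deepest region (33.3%, against 46.2% of all genes). These were the keratin gene Krt18 (46 against 0), the claudin gene Cldn3 (37 against 0) and the splicing factor gene Esrp2 (33 against 0, in a region upstream of the gene). Dsp, encoding the desmosome protein desmoplakin, had 246 against 3 in the deepest of its 10 regions (67.6-fold, 22.9 to 330), and 1167 against 44 over all of them (21.9-fold). The transcription factor gene Grhl2 had 29 against 4 (5.98-fold, 2.10 to 23.4) and the junction protein gene F11r 44 against 7 (5.18-fold, 2.32 to 13.6). The median fold was 9.07 with zeros at their bound. Cdh1, the E-cadherin gene that Snail represses, was not listed in the table used here.

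The signals that bring on an EMT were represented by 12 of 29 ligand, receptor and transducer genes. In the deepest region 6 of them had no DKO reads (50%, near the 46.2% of all genes). The receptor genes Acvr1, Tgfbr2 and Notch1 had 120, 106 and 56 reads against 0, and the transducer gene Smad2 had 79 against 0. The bounds of these 4 ran from 15.4-fold (Notch1) to 33.0-fold (Acvr1). Tgfbr2 had DKO reads outside its deepest region, with 194 reads against 7 over its 3 regions (22.9-fold). The ligand gene Bmp2, in a region upstream of the gene, had 91 against 11 (6.82-fold, 3.64 to 14.1), and Smad7, an inhibitor of the pathway, had 26 against 3 (7.15-fold, 2.19 to 36.9). The median fold was 12.6 with zeros at their bound.

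Around Tbx20, 4 of 17 T-box genes were listed. Tbx20 had the highest wild-type count of them. T, the primitive streak factor Brachyury, had 30 reads against 1 over coding exon and 5'UTR (24.7-fold, 4.11 to 1009), and Eomes had 23 against 0 in the same kind of region, at least 6.32-fold. Tbx6 had 28 against 0 in a region upstream of the gene. These 3 were also listed among 22 primitive streak and early mesoderm genes, where the other listed gene was the ligand gene Nodal (164 against 1, 135-fold, 23.9 to 5375, with 296 against 1 over both of its regions). Their list had a median fold of 16.2, which 4 genes leave poorly determined, and Tbx20 was not in it.

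Of 30 heart development genes, 6 were listed. Tbx20, Nkx2-5 (21 against 0, over coding exon and 3'UTR) and the giant muscle protein gene Ttn (15 against 0) had no DKO reads. That was 50% of the 6, near the 46.2% of all genes, and it counts Tbx20, which was chosen with results of these data known. Mef2c had 278 against 16 in an intron (14.3-fold, 8.67 to 25.4), the serum response factor gene Srf 44 against 4 (9.07-fold, 3.30 to 34.8) and Gata6, also an endoderm gene, 59 against 8 (6.08-fold, 2.89 to 14.7). The median fold of the 6 was 7.58 with zeros at their bound, below the 11.1 of all genes, while the bound of Tbx20 was 27.2. The bounds of Tbx20, Nkx2-5 and Ttn follow from their wild-type counts alone, so this comparison rests partly on wild-type depth.

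Vim belongs to the intermediate filament genes, of which 8 of 17 were listed. Nes, encoding nestin, a filament protein of progenitor cells, had 1110 reads against 10 (91.6-fold, 49.6 to 191) and 2184 against 11 over its 9 regions, and the keratin genes Krt18 and Krt7 had 46 and 33 against 0. Des, encoding the muscle filament protein desmin, had 30 reads in the 3'UTR against 2 (12.4-fold, 3.14 to 106.8), and the neurofilament gene Nefm had 19 against 1 (15.7-fold, 2.49 to 651). The median fold was 13.2 with zeros at their bound.

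Genes whose products act on Snail protein were listed in 5 of 19 cases. Of these, 3 (60%) had no DKO reads in the deepest region, against 46.2% of all genes. The kinase gene Lats2 had 163 against 0 in the deepest of its 7 regions, at least 44.8-fold, and 612 against 15 over all of them. Loxl2, encoding a lysyl oxidase, had 34 against 0, and Fbxl14, encoding a ubiquitin ligase subunit, 17 against 0. Usp27x, encoding a deubiquitinase, had 84 against 8 (8.66-fold, 4.20 to 20.7). Gsk3b had 78 against 3 in a region upstream of the gene, so those reads say nothing of the deletion itself, and Gsk3a was not listed in the table used here.

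**Figure D5:**
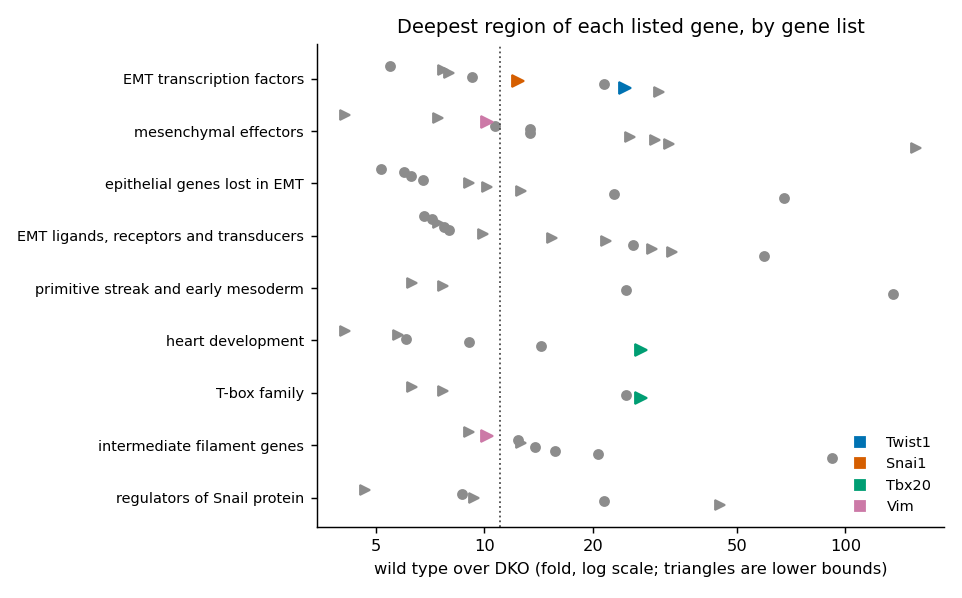
Fold of wild type over DKO (log scale) in the deepest region of each listed gene, by gene list; triangles are lower bounds (no DKO reads, floor of 3), circles are folds with DKO reads, the 4 genes are coloured and the dotted line is the median of all genes, 11.1. Twist1, Snai1 and Tbx20 lie to the right of the line with bounds of 24.5, 12.4 and 27.2, and Vim lies to the left with a bound of 10.2. The place of a triangle is set by the wild-type count alone, so the side of the line on which the fold of Vim falls is unknown.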

How the data were processed

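The deposited table gave, per region, a whole-number count for wild type and for DKO, which the authors made with tools not fully described: Bowtie2, DESeq and mm9 are named, without role, in the submitters' processing notes. How peaks were called, regions filtered and counts normalized is not given in the sources used here. The headers name the genotype only, so counts of input, or counts adjusted by it, are possible. The deposited enrichment factor is a ratio, and the deposited read density is a signal, wild-type reads divided by region length. The table gives the ratio as wild type over DKO times 0.825, blank at a DKO count of 0. Of 6035 rows with a gene identifier in RefSeq's GRCm38.p6 table, 6026 lay within 5000 bases of that gene in that build, and mm9 was therefore not used for coordinates.

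The 7562 rows were reduced to 6697 distinct regions with pandas 2.3.3. Log2 of DKO over wild type used the DKO count divided by the constant and a pseudocount of 0.5 on both sides. Intervals (95%) are exact Poisson for a count and Clopper-Pearson for shares and ratios, from SciPy 1.17.1. Of these, only the intervals of ratios were tested on simulated data. Whether the authors removed PCR copies is not given, and they could not be removed from a table of counts. Both intervals and floors therefore cover only counting error. No test was made, as each group had 1 library, and every value compares these libraries and not the conditions. Per the rule for named genes, all regions of the 4 genes are given, and of each list up to 4 genes with the largest and 2 with the smallest absolute log2 of the deepest region. The genes and lists were chosen with earlier results of these data known.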

Additional observations from a re-analysis of the deposited data

How the results depend on the processing

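Every alternative kept the direction, which shows no robustness, as the DKO count reached the wild-type count in 0 listed regions. How the regions were selected is not given in the sources used here. For the 6 regions, 11 alternative folds (7.83 to 33.0) and 24 alternative log2 values (-8.63 to -3.71) stayed within counting error. For the 5 regions with no DKO reads the interval had no upper end, and these settings could not take a value below its lower end. That outcome was therefore fixed in advance there and shows no robustness. The median log2 of all regions (-5.15) was -6.02 at a pseudocount of 0.25, -3.64 at 2, -4.93 with the pseudocount added before the constant (chosen after seeing the data) and -4.47 in the deeper regions (mean count not under its median). The pseudocount enters zeros directly, and for the subset the cause was not tested. The share of regions with no DKO reads (50.5%) was 44.1% and 33.6% among regions with counts like those of the first and later Twist1 regions, 30.9% like Tbx20, and 56.2% and 57.6% like the first and second Vim regions. The early mesoderm list's median (-5.69) was -6.68 at the pseudocount of 0.25 and -3.78 at 2, and the T-box list's -3.78 at 2, and the other 69 list alternatives stayed within the binomial interval of their median, which with 4 to 12 genes is wide. No paired analysis was possible because each group had 1 library. With 35 to 99 wild-type reads a region and 0 to 2 in DKO, folds beyond the bounds given were not detectable.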

Other observations

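Within 150 kb of the 4 genes the table listed 5 other regions, all near Twist1, Snai1 or Tbx20 and none near Vim. On chromosome 2, Spata2 lay 56798 bases from the Snai1 region and had 78 reads against 2 (32.2-fold, 8.61 to 270) and 55 against 6 (7.56-fold, 3.26 to 21.5) in coding exons. Tmem189, 101481 bases away, had 246 against 12 (16.9-fold, 9.51 to 33.2). The 3 neighbouring regions of Snai1 each had DKO reads where the Snai1 region had 45 reads against 0. The 95% interval of the Snai1 ratio began at 9.65-fold and overlapped all 3 of theirs. Overlap of intervals does not settle whether ratios differ, and a difference between Snai1 and these neighbours was not tested. A region with no annotated gene, 91162 bases from the Twist1 regions, had 236 against 24 (8.11-fold, 5.32 to 12.9). That interval overlapped the interval of the Twist1 coding region (6.10 to 195). It lay below the lower 95% limit of the later Twist1 region (19.5-fold), and this difference was not tested either. Another without a gene, 87688 bases from the Tbx20 region, had 32 against 0, at least 8.80-fold lower in DKO.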
